A study of Mus musculus with 6 samples.

Results

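The genes described here are 10 regulators and building blocks of the actin network that positions the meiotic spindle. They were chosen by symbol (*Fmn2*, *Spire1*, *Spire2*, *Actr2*, *Actr3*, *Arpc2*, *Wasl*, *Cdc42*, *Rac1* and *Myh9*) from the 53465 Ensembl genes of the count table, and all 10 were found in it. RNA was sequenced from 6 pools of M II oocytes, eggs arrested at metaphase of the second meiotic division, from naturally aged female Kunming (KM) mice, 9 to 10 months old. Control pools, 3 in number, matured in vitro without quercetin, and the other 3 pools matured with 10 μM quercetin, a plant flavonol that was dissolved in DMSO, and whether control medium held DMSO is not described. Each pool held 15 oocytes of 3 mice, cumulus cells had been removed by pipetting, and no genetic change was made in either group. The comparison asks which transcripts differ in aged oocytes after quercetin. The labels do not say whether pools of the 2 groups came from different mice, so p-values measure the spread between these pools. The libraries were primed on poly(A) tails.

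The mouse oocyte has no centrosomes to anchor its spindle and moves it to the cortex with actin filaments, so that the polar body is small and the egg keeps its cytoplasm. Formin-2 and the Spire proteins start straight filaments in the cytoplasm, while the Arp2/3 complex, switched on by N-WASP downstream of the GTPase Cdc42, branches filaments at the cortex over the chromosomes. Rac1, a related GTPase, is active in that cortical cap, and non-muscle myosin II contracts the cortex around it.

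The pools held from 7880467 to 9938743 counts on genes, where 3 counts, the floor for a gene seen at all, equal 0.302 to 0.381 CPM (counts scaled to a common library size). This floor and the intervals on shares of counts cover counting error only. All 11 oocyte markers had counts in every pool. Of 16 cumulus and granulosa markers, 5 were at 0 in every pool (*Amh*, *Amhr2*, *Foxl2*, *Ptx3* and *Npr2*), and the defining marker *Fshr* had 6 to 18 counts. The defining marker *Cyp19a1*, which encodes the estrogen-forming enzyme, was above the floor in every pool, with 486 to 692 counts. The summed level of the 16 was 81.7 to 101 CPM in control pools and 108 to 110.3 CPM in quercetin pools, so the groups did not overlap. *Cyp19a1* made up most of this sum, with means of 64.1 CPM in control and 74.4 CPM in quercetin pools. *Kitl* had means of 8.08 and 12.2 CPM, while *Fshr* had 18, 8 and 9 counts in control and 6, 7 and 13 in quercetin pools. *Ptgs2* had 31, 11 and 13 against 11, 4 and 18 counts, so not every marker was higher with quercetin. *Tnfaip6* had 0, 0 and 0 against 2, 8 and 4 counts, and *Lhcgr* had 0, 0 and 0 against 2, 4 and 2. The number of the 16 with a count also parted the groups, at 6, 7 and 9 in control and 10, 11 and 10 in quercetin pools. Of the 5 with enough counts to be tested, 4 were higher with quercetin and 1 was lower. The mitochondrial share of all counts also parted the groups, at 2.47% to 3.11% in control and 2.09% to 2.28% in quercetin pools. The share on *Gm42418* and *CT010467.1*, which mark ribosomal RNA, parted them too, at 0.0631% to 0.0966% and 0.0328% to 0.0417%. The part of these differences in the results below was not tested.

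None of the 10 genes changed by the criteria used, a change of over 2-fold whose adjusted p was under 0.05, which 0% of the 11842 tested genes met. DESeq2 and the likelihood ratio test of edgeR called 12 and 16 of all genes, and none of the 10. *Spire2* had too few counts to be tested. Of the other 9, *Myh9* alone had an unadjusted p under 0.05 in edgeR's quasi-likelihood test, a criterion that 4.03% of all tested genes met (2.14% as higher and 1.89% as lower), and its level in quercetin pools was 0.585 of that in control pools. The likelihood ratio test gave such a p to 1 of the 9 as well, and to 3.54% of all tested genes. The remaining 8 had log2 fold changes (quercetin over control) between -0.12 and 0.19, and their 95% intervals lay inside 2-fold in both directions. The widest of these intervals, for *Rac1*, ran from 0.742-fold to 1.73-fold, and the narrowest, for *Wasl*, from 0.769-fold to 1.15-fold. The median log2 fold change was 0.05 over the 9 genes and -0.03 over all tested genes, or -0.04 and -0.11 when counts were scaled by library size only.

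**Figure D1:**
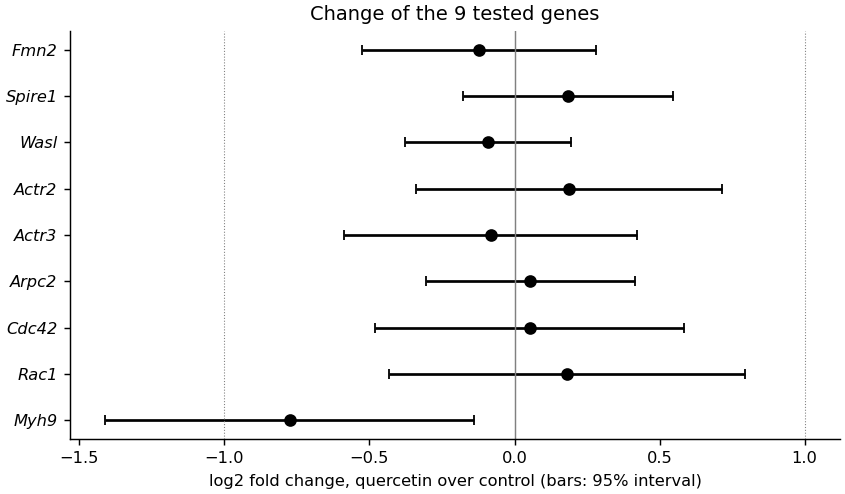
Log2 fold change of the 9 tested genes (x axis, quercetin over control, 3 pools per group) with bars for the 95% interval and dotted lines at a 2-fold change. The interval of *Myh9* runs from -1.41 to -0.14, and all others span 0.

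Levels between genes were compared as CPM scaled by TMM (a scaling that aligns the bulk of genes between libraries) per kilobase of annotated exon, over all 6 pools. *Cdc42* had the highest mean, 86.6 ± 19.0, followed by *Spire1* with 74.5 ± 10.4, *Rac1* with 67.2 ± 19.0 and *Arpc2* with 58.2 ± 6.49 CPM per kilobase (SD, n = 6). *Actr2* and *Wasl* came next with 49.9 ± 11.7 and 49.7 ± 2.80, then *Fmn2* with 40.5 ± 5.86, *Actr3* with 11.2 ± 2.15 and *Myh9* with 0.403 ± 0.131 CPM per kilobase (SD, n = 6). From *Cdc42* down to *Wasl*, each gene lay above the next in only 3 to 5 of the 6 pools, so neighbours in this stretch did not differ beyond their spread. *Wasl*, *Fmn2*, *Actr3* and *Myh9* each lay above the next gene in 6 of 6 pools. The 7 most abundant genes exceeded between 89.4% and 94.4% of the tested genes in level per kilobase, *Actr3* exceeded 73.1% and *Myh9* 8.72%.

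**Figure D2:**
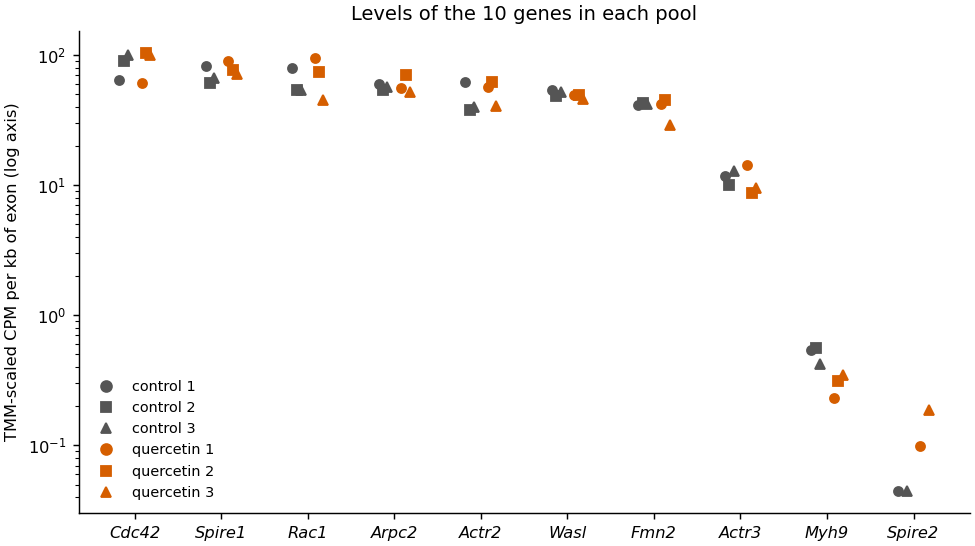
TMM-scaled CPM per kilobase of exon (y axis, log scale) of the 10 genes in each control and quercetin pool, ordered by mean. Points are single pools, and the 2 pools with no *Spire2* count are not drawn. The means of the first 7 genes lie between 40.5 and 86.6, while *Myh9* and *Spire2* lie far below at 0.403 and 0.0626.

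*Fmn2* and *Spire1*, which encode nucleators of the oocyte cytoplasm, were abundant, and one relative held nearly all of each family. *Fmn2* (ENSMUSG00000028354, chromosome 1 from 174501825 to 174822729, plus strand, on GRCm38 as for all genes here) encodes formin-2, which extends straight filaments. It had 331, 342 and 336 CPM in the controls, against 338, 359 and 229 CPM after quercetin. Quercetin replicate 3 stood below the other 5 pools, which lay between 331 and 359 CPM. The log2 fold change was -0.12 (SE 0.18, 95% interval -0.53 to 0.28), and its Benjamini-Hochberg adjusted p = 0.988 in the quasi-likelihood fit of edgeR. Without quercetin replicate 3, it was 0.05. The relative *Fmn1* held 0.627% to 1.18% of the pair per kilobase.

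*Spire1* (ENSMUSG00000024533, chromosome 18 from 67488209 to 67610790, minus strand) and *Spire2* (ENSMUSG00000010154, chromosome 8 from 123332713 to 123369515, plus strand) encode the nucleators that work with formin-2. *Spire1* had 635, 473 and 517 CPM without quercetin, compared with 695, 596 and 555 CPM in its presence, with overlapping groups. Its log2 fold change was 0.18 (SE 0.16, 95% interval -0.18 to 0.55). *Spire2* had 1, 0 and 1 counts in the controls, against 2, 0 and 4 after quercetin, so only quercetin replicate 3 passed the floor of 3 counts. Over the 6 pools, 29989 counts on *Spire1* faced 8 on *Spire2*. Per kilobase this was 1212-fold more *Spire1*, with an exact (Clopper-Pearson) 95% interval for counting error of 615 to 2807. In control replicate 2 and quercetin replicate 2, which had no *Spire2* count, *Spire1* was at least 426-fold and 587-fold higher against the floor per library. With so few reads no change of *Spire2* was detectable at this depth.

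**Figure D3:**
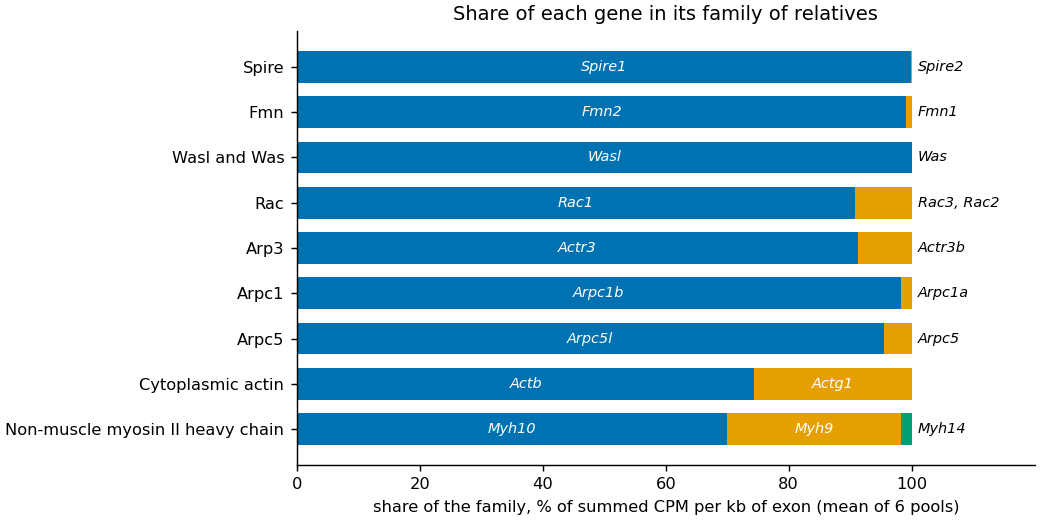
Mean share of each gene in its family (x axis, percent of the summed TMM-scaled CPM per kilobase over 6 pools) for 9 families, with genes under 15% named at the right. *Spire1*, *Fmn2*, *Wasl*, *Rac1*, *Actr3*, *Arpc1b* and *Arpc5l* each hold over 90% of their family, and *Myh9* holds 28.2% beside *Myh10*.

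Among the Arp2/3 subunits, *Actr2* and *Arpc2* were abundant, and *Actr3* was below both per kilobase in every pool. The complex is built of the actin-related proteins Arp2 and Arp3, which mimic a filament end, and of Arpc subunits that clamp it to the mother filament. *Actr2* (ENSMUSG00000020152, chromosome 11 from 20062304 to 20112913, minus strand), which encodes Arp2, had 324, 197 and 208 CPM in the control group, next to 297, 322 and 210.1 CPM in the treated group. Control replicate 1 and quercetin replicates 1 and 2 were high and the other 3 pools low, so the groups overlapped. Its log2 fold change was 0.19 (SE 0.23, 95% interval -0.34 to 0.71), and without control replicate 1 it was 0.45 with an unadjusted p of 0.0668.

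*Actr3* (ENSMUSG00000026341, chromosome 1 from 125392905 to 125435727, minus strand) encodes Arp3. Of the 31-base words in its annotated transcripts, 33.4% also occur in *Gm8822*, a processed pseudogene on chromosome X, so reads can match either gene, and how such reads were counted is not given. The longest coding piece of *Actr3*, exon 9 of 13 at chr1:125403393-125403566 (GRCm38, minus strand), is shown beside the matching stretch of *Gm8822* at chrX:81821873-81822046 (minus strand), with differing bases in capitals.
Actr3: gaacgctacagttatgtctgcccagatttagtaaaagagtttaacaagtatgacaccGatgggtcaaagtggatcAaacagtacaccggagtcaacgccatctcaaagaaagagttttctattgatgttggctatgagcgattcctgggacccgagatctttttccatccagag
Gm8822: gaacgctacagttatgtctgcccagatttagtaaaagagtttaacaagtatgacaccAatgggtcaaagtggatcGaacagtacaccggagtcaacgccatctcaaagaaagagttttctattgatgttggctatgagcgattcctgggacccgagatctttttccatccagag
The 174 bases differ at 2 positions, G58A and A76G, counted from the 5′ end with the *Actr3* base first, and 98 bases in a row are identical.

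*Actr3* had 54.4, 46.1 and 59.7 CPM in the controls, against 66.4, 40.6 and 44.4 CPM after quercetin, where quercetin replicate 1 was the highest and replicates 2 and 3 were the lowest. *Gm8822* had 105, 76 and 80 counts without quercetin, compared with 60, 74 and 71 in its presence. Its log2 fold change was -0.32 (SE 0.23), and every treated pool was below every control pool in CPM, as in 5.17% of all tested genes. The log2 fold change of *Actr3* was -0.08 (SE 0.22, 95% interval -0.59 to 0.42) and became -0.12 when the counts of *Gm8822* were added to it. In counts per kilobase, *Actr2* exceeded *Actr3* by 3.10- to 5.31-fold in control pools and by 3.98- to 7.07-fold in quercetin pools, with overlapping groups. Reads left out for matching *Gm8822* too would lower the level of *Actr3* and its family share. The gap also depends on length, with mean levels of 49.9 and 11.2 CPM per kilobase by merged exons. By the longest transcript they were 71.5 and 20.2.

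*Arpc2* (ENSMUSG00000006304, chromosome 1 from 74236084 to 74268209, plus strand) encodes a core subunit of the clamp. It had 123, 110.01 and 116 CPM without quercetin, compared with 114, 142 and 105 CPM in its presence. Quercetin replicate 2 was the highest, and the other pools of both groups mixed. Its log2 fold change was 0.05 (SE 0.16, 95% interval -0.30 to 0.41), which turned to -0.04 when counts were scaled by library size only.

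Where 2 genes encode a subunit, most of the RNA came from one of them, an observation made after the counts were seen. *Arpc1b* held 96.4% to 99.5% of the Arpc1 pair per kilobase and *Arpc5l* held 93.4% to 98.0% of the Arpc5 pair. *Actr3* held 85.1% to 94.2% of the pair with *Actr3b*. All 7 other subunit genes were tested, and none had an unadjusted p under 0.05 with TMM, while by library size only 1 of them (*Arpc4*, named after its value was seen) did and was lower, as were 359 of the 11842 tested genes.

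**Figure D4:**
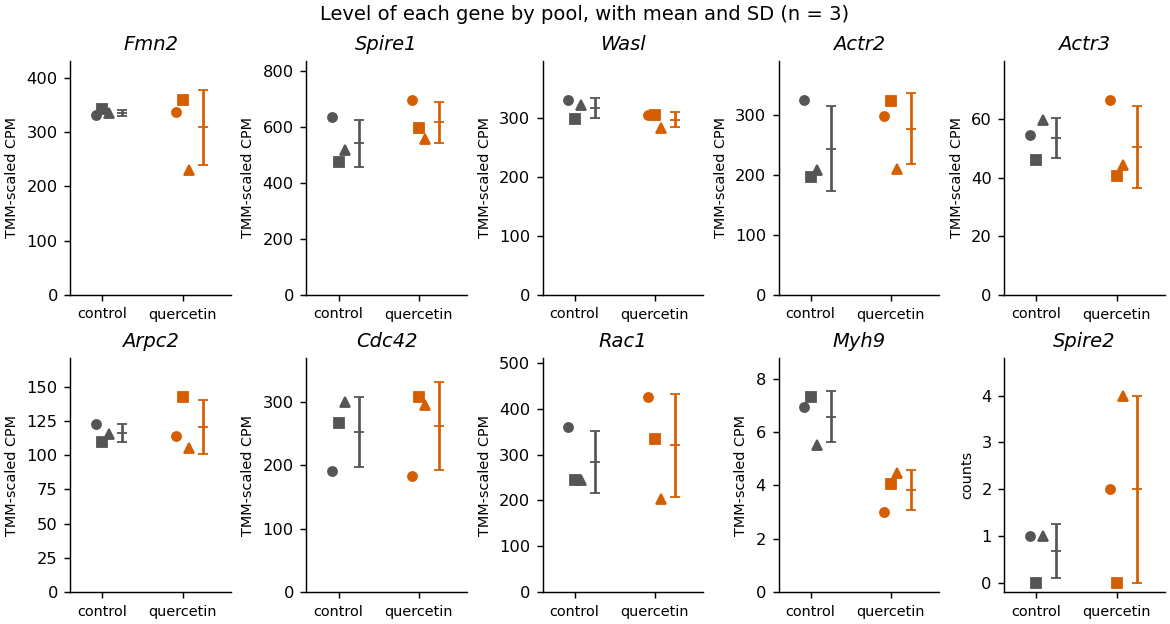
TMM-scaled CPM (y axis, starting at 0) of each gene in the 3 control pools (grey) and the 3 quercetin pools (orange), and plain counts for *Spire2*. Circles, squares and triangles are replicates 1, 2 and 3, and bars give the mean and SD; the groups part only for *Myh9* (by library size only, for *Fmn2* and *Wasl* too).

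*Wasl*, the activator of the complex, and the GTPases *Cdc42* and *Rac1* had levels that overlapped between the groups. *Wasl* (ENSMUSG00000029684, chromosome 6 from 24613805 to 24665009, minus strand) encodes N-WASP. It had 329.9, 297 and 322 CPM in the control group, next to 305, 304 and 282 CPM in the treated group, with quercetin replicate 3 the lowest. Its highest pool was only 1.17-fold above its lowest, the least spread among the 9 genes, where the median tested gene had 1.83-fold. Its log2 fold change was -0.09 (SE 0.13, 95% interval -0.38 to 0.20). The blood-cell relative *Was* had no count in any pool.

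*Cdc42* (ENSMUSG00000006699, chromosome 4 from 137319696 to 137357720, minus strand) encodes the GTPase that directs cortical polarity. It had 191, 266 and 299.9 CPM in the controls, against 182, 307 and 295 CPM after quercetin. In each group, replicate 1 was low and the other 2 pools were high. Its log2 fold change was 0.05 (SE 0.24, 95% interval -0.48 to 0.58), and was -0.02 by library size only.

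*Rac1* (ENSMUSG00000001847, chromosome 5 from 143503634 to 143528036, minus strand) had 361, 244 and 244 CPM without quercetin, compared with 426, 335 and 202 CPM in its presence. Each group had its highest pool at replicate 1, where *Cdc42* was lowest, and quercetin pools spanned 2.11-fold, the widest of the abundant genes. The log2 fold change was 0.18 (SE 0.27, 95% interval -0.43 to 0.79), and without quercetin replicate 1 it was -0.07. The last 2309 bases of *Rac1*, from 143503634 to 143505942 and outside its coding sequence, overlap *Daglb* on the plus strand, and 51.4% of the exon length is concerned. *Daglb* had 614 to 959 counts, against 1723 to 3409 on *Rac1*. With both summed, the log2 fold change was 0.10, but reads left out for matching both genes would not be restored by this sum. The level and family share of *Rac1* use its full exon length, so such a loss would lower both. *Rac1* held 88.2% to 92.4% of the Rac family per kilobase, *Rac3* held the rest and *Rac2* had no count.

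*Myh9* was the only one of the 10 genes whose pools did not overlap between groups in TMM-scaled CPM, while *Fmn2* and *Wasl* joined it by library size only. It encodes the heavy chain of non-muscle myosin IIA, the motor that contracts the cortex (ENSMUSG00000022443, chromosome 15 from 77760587 to 77842175, minus strand). It had 62, 61 and 49 counts in the controls, against 24, 37 and 38 after quercetin, which gave means of 6.58 ± 0.958 and 3.83 ± 0.753 CPM (SD, n = 3). Every quercetin pool was below every control pool, as in 5.17% of all tested genes. An exact permutation of the 6 pools gave a two-sided p = 0.1, below which 3 against 3 cannot go. The log2 fold change was -0.77 (SE 0.28, 95% interval -1.41 to -0.14), with an unadjusted p of 0.0223 and, by edgeR, a Benjamini-Hochberg adjusted p = 0.988. In the quercetin pools the summed cumulus markers, mostly *Cyp19a1*, were higher than in control pools, without overlap. More of the 16 markers had a count there, 10 to 11 against 6 to 9, though single markers such as *Fshr* were not higher. The mitochondrial and ribosomal RNA shares were lower, also without overlap. The part of these differences in that of *Myh9* was not tested. Fewer oocytes with *Myh9* RNA and less of it per oocyte cannot be told apart in a pool. Nor can either be told apart from a change in the poly(A) tails on which the libraries were primed.

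The unadjusted p of *Myh9* rose to 0.0591 without control replicate 1, to 0.0698 without control replicate 2 and to 0.0790 without quercetin replicate 1. By library size only, the pools of *Fmn2* and *Wasl* also lay wholly lower with quercetin, which makes 3 of the 10 genes, where 7.3% of all tested genes did so. The relative *Myh10*, the heavy chain of myosin IIB, had 96, 84 and 91 counts without quercetin, compared with 80, 62 and 133 in its presence, and a log2 fold change of 0.06 (SE 0.31). The share of *Myh9* in the 2 genes per kilobase was 30.3% to 37.0% in control and 18.8% to 32.6% in quercetin pools, so this share overlapped. Whether the changes of the 2 genes differ was not tested.

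The rest of the actin network was covered by 97 genes in 9 lists, of which 75 were tested and 22 had too few counts. As for all tested genes, none met the adjusted criterion in edgeR's quasi-likelihood test. An unadjusted p under 0.05 was found for 4 of the 75 (5.33%, beside 4.03% of all tested genes), all higher with quercetin, as were 2.14% of all tested genes. In CPM, the pools of 9 of the 75 did not overlap between groups, 5 higher and 4 lower, beside 10.6% of all tested genes. Those with a p under 0.05 were *Capza1* and *Capza2*, the alpha subunits of the protein that caps the growing filament end, and *Pard3* and *Prkci*, which encode the polarity proteins Par3 and atypical protein kinase C. The median log2 fold change over the 75 was -0.05, beside -0.03 over all tested genes.

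*Capza1* had 287, 203 and 244 counts in the controls, against 305, 363 and 347 after quercetin, and its log2 fold change was 0.50 (SE 0.18). *Capza2* had 1954, 1535 and 1929 counts without quercetin, compared with 2342, 2813 and 1961 in its presence, and its log2 fold change was 0.42 (SE 0.16). In CPM, every quercetin pool of both genes was above every control pool, as in 5.42% of all tested genes. The Benjamini-Hochberg adjusted p was 0.988 for each by edgeR, and 3 of 14 alternatives moved the unadjusted p of each past 0.05. *Tmod3*, which caps the other filament end and was second in abundance in this list of 7 tested genes, had a log2 fold change of 0.21 (SE 0.18).

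*Pard3* had a log2 fold change of 0.41 (SE 0.17, unadjusted p of 0.0414) with overlapping pools, and *Prkci* one of 0.41 (SE 0.16, unadjusted p of 0.0332) without overlap, both from edgeR's quasi-likelihood test. For both, 6 of 14 alternatives moved the unadjusted p past 0.05, scaling by library size only among them. The most abundant gene of this list of linkers and polarity factors was *Rdx*, which encodes radixin and ties actin to the membrane. Mean levels were 4074 ± 417 CPM in control and 4287 ± 875 CPM in quercetin pools (SD, n = 3), with a log2 fold change of 0.07 (SE 0.18), and its relative *Ezr* had 0 to 3 counts. The median over the 7 tested genes of the list was 0.36, with 6 above 0, as were 5490 of the 11842 tested genes.

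All 7 tested other formins had log2 fold changes under 0, as had 6352 of the 11842 tested genes. Their median was -0.25, and none had an unadjusted p under 0.05. *Fhod3* and *Daam1*, the most abundant, had -0.12 (SE 0.17) and -0.18 (SE 0.22). By library size only, 1 of the 7 (*Fmnl2*, likewise named) had an unadjusted p under 0.05 and was lower, as were 359 of the 11842 tested genes. Among effector kinases, 8 of 10 were under 0, with a median of -0.15. *Rock1*, which activates myosin II, had 1020 ± 152 CPM in control and 989 ± 72.4 CPM in quercetin pools (SD, n = 3). *Cit*, a kinase of the cleavage furrow, had a log2 fold change of 0.10 (SE 0.13).

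In the remaining lists, no gene had an unadjusted p under 0.05 with TMM. Of all 11842 tested genes, 5490 had log2 fold changes above 0 and 6352 under 0. Among other nucleation-promoting factors, 9 of 13 were under 0 (median -0.15), and the abundant WAVE subunits *Nckap1* and *Brk1* had 0.03 (SE 0.27) and 0.08 (SE 0.20). In the other Arp2/3 subunits 5 of 7 were above 0 (median 0.12), with *Arpc5l* at 0.22 (SE 0.17) and *Arpc1b* at 0.12 (SE 0.15). The other myosin chains and motors had a median of 0.06, with the light chain *Myl12a* at 0.30 (SE 0.18) and the phosphatase subunit *Ppp1r12a* at -0.03 (SE 0.18). For Arp2/3 inhibitors and debranching factors it was 0.01, with *Gmfb*, a debranching factor, at 0.27 (SE 0.17) and *Coro1b* at -0.20 (SE 0.27). The medians of the capping genes, the myosins and the inhibitors were 0.02, 0.06 and 0.01 with TMM. By library size only, they turned to -0.07, -0.02 and -0.04. At that scaling, 12 of the 13 nucleation-promoting factors were under 0, as were 7741 of the 11842 tested genes.

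Actin itself and its monomer-binding proteins had a median log2 fold change of -0.03 over 12 tested genes, 6 above and 6 under 0. *Pfn1*, which recharges actin monomers, and *Cfl1*, which severs filaments, had -0.10 (SE 0.19) and -0.31 (SE 0.25). The cytoplasmic actins, singled out after their values were seen, had 10.98 ± 1.59 CPM per kilobase for *Actb* and 3.75 ± 0.425 for *Actg1* (SD, n = 6). *Cdc42*, *Spire1*, *Rac1*, *Arpc2*, *Actr2*, *Wasl* and *Fmn2* all exceeded *Actb* in counted CPM per kilobase. Sequence that the actins share with other genes was not examined, and how reads matching several genes were counted is not given. Reads left out for that reason would lower *Actb* and *Actg1*, so this order may not be that of the RNA itself.

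**Figure D5:**
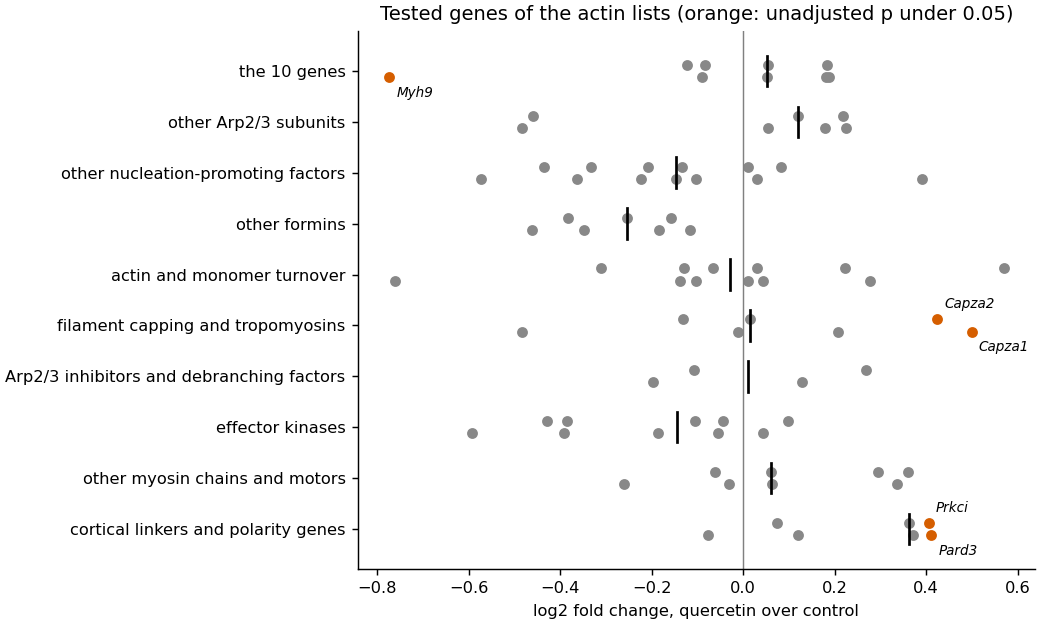
Log2 fold change (x axis, quercetin over control) of each tested gene in the 10 genes and the 9 other actin lists, with a black line at each list's median. Orange points have an unadjusted p under 0.05, which are *Myh9* at -0.77 and *Capza1*, *Capza2*, *Pard3* and *Prkci* between 0.41 and 0.50.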

How the data were processed

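The authors deposited raw read counts for 53465 Ensembl genes in 6 pools, without normalization. Per the methods, reads were aligned with Hisat2 to GRCm38.91, while the submitters' processing notes name TopHat2 2.0.6 and CASAVA 1.8. The counting program, its strand setting and its treatment of reads that match several genes are not given in the sources used here. Symbols from the gene name table matched 53274 identifiers, and lengths and coordinates came from GENCODE M21 on GRCm38. Lengths are those of merged exons.

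Of 24476 genes with a count, 11842 passed filterByExpr (minimum count 10). The deposited counts were scaled by TMM and tested with edgeR 4.0.16 (glmQLFit, glmQLFTest, no covariate, R 4.3.3), and p-values were adjusted by Benjamini-Hochberg across the 11842 genes. A standard error is the log2 fold change divided by the square root of F, and intervals use the t quantile of the total degrees of freedom. CPM of single genes use TMM-scaled library sizes. The fit was tested on simulated counts. Alternatives were DESeq2 1.42.0, the likelihood ratio test, limma-voom (limma 3.58.1), 2 scalings, 2 filters, the replicate block and leaving out each pool. Python 3.11.15, scipy 1.17.1 and matplotlib 3.10.9 were used.

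The 10 genes and the lists were chosen with earlier results of these data known. Named were the 10 genes, and from each actin list (not the marker lists) the 2 tested genes with the highest mean CPM and any with an unadjusted p under 0.05. Sums with *Gm8822* and *Daglb*, the families of relatives and the actins were added after seeing the data. A protein sequence table was not used here. A further list is not reported here.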

Additional observations from a re-analysis of the deposited data

How the results depend on the processing

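Among the 10 genes, 0 were called under every alternative. Of 128 alternative log2 fold changes for the 9 tested genes, 117 kept their direction and 11 did not. Leaving out each pool in turn gave -0.24 to 0.054 for *Fmn2*, -0.33 to 0.055 for *Actr3*, -0.081 to 0.15 for *Arpc2*, -0.11 to 0.26 for *Cdc42* and -0.075 to 0.43 for *Rac1*, and -0.89 to -0.63 for *Myh9*. By library size only, *Arpc2* had -0.037 and *Cdc42* -0.025. The number of the 10 genes with an unadjusted p under 0.05 was 0 to 1 with a pool left out, and the number without overlap went from 1 to 3 by library size only. Among 20 other named genes, 13 kept their direction throughout. Leaving out each pool gave -0.23 to 0.19 for *Nckap1*, -0.11 to 0.21 for *Brk1*, -0.25 to 0.028 for *Fhod3*, -0.23 to 0.038 for *Pfn1*, -0.11 to 0.087 for *Rock1*, -0.20 to 0.12 for *Ppp1r12a* and -0.096 to 0.20 for *Rdx*. By library size only, *Nckap1* had -0.056 and *Brk1* -0.013. The cause of these changes was not tested.

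Over all genes, 0 were called, against 12 with DESeq2, 16 with the likelihood ratio test, 3 without a filter and 0 to 7 with a pool left out. An unadjusted p under 0.05 was met by 477 genes, 780 without a filter, 241 without control replicate 2 and 1563 without quercetin replicate 3. By library size only, 145 of these were higher and 359 lower, against 253 and 224 with TMM. With lengths of the longest transcript, the level of *Actr3* rose from 11.2 to 20.2 CPM per kilobase, and *Arpc2* passed *Rac1* in the order. Deviations of same-numbered pools correlated by 0.296, 0.101 and -0.0303, so the numbers were not taken as pairs, and the replicate block gave 0 called genes and -0.78 for *Myh9*. The values of *Myh9* rest on 24 to 62 counts per pool, and *Spire2* lies at the floor.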
